A study of Homo sapiens with 6 samples.

Results

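Adhesion G protein-coupled receptors were compared between melanoma cells with the strongest and the weakest aldehyde dehydrogenase activity. They were taken as every protein_coding row of the deposited gene tables whose name begins with ADGR, which gave 29 genes of 57914 rows, 19779 of them protein_coding. The cells were A375, an established human melanoma line grown in high-glucose medium with serum. Live cells were stained with Aldefluor, a dye that becomes trapped and fluorescent in cells with active aldehyde dehydrogenases, and the 5% of cells with the most signal (ALDH_High, n = 3 libraries) and the 5% with the least (ALDH_Low, n = 3 libraries) were sorted. The labels name no genetic change or drug for either group, and no unsorted library was analysed here. All libraries come from 1 cell line, and the labels do not say whether the replicates came from separate cultures, so p-values measure the spread between these libraries, which may be technical.

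Adhesion receptors join a long extracellular part, built from adhesion modules, to the membrane-spanning core shared by all G protein-coupled receptors. Between them lies the GAIN domain, where most members cut themselves. The stretch left on the membrane side can act as a tethered agonist once the outer fragment is pulled away by a ligand on a neighbouring cell or in the matrix. The receptors then signal through heterotrimeric G proteins, of which Gα12/13 and Gαs, whose route runs through cAMP, are the best known. In the melanocyte lineage ADGRG1 (also named GPR56) is the member most studied, through experiments on the growth and spread of melanoma xenografts.

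Total counts ran from 26692868 to 37830603 per library. ALDH1A3, the aldehyde dehydrogenase named in the title of the study, had scaled counts per 1000000 (CPM, by the trimmed mean of M values) of 683, 1149 and 1088 in ALDH_High and of 345, 419.5 and 403 in ALDH_Low, a log2 fold change of 1.32 (SE 0.19, adjusted p = 0.000734 by edgeR's quasi-likelihood test with Benjamini-Hochberg adjustment). ALDH_High replicate 1 lay farther from the other ALDH_High libraries (chi-square per degree of freedom 46.2 and 56.9) than any other pair within a group (13.7 to 29.5), while pairs across groups gave 96.2 to 132. Of 11 melanoma markers, summed at 1268 to 1930 CPM in ALDH_High and 589 to 626 in ALDH_Low, SOX10 had at least 5835 counts in every library, while the pigment cell markers MLANA and TYR had at most 3. Of the 11 melanoma markers 7 were tested and 6 passed an adjusted p below 0.05, 5 higher in ALDH_High and 1 lower (median log2 fold change 1.64). Over all genes tested 20.6% passed. SOX10 was higher in ALDH_High by a log2 fold change of 1.79 and MITF, the master regulator of pigment cells, lower (-0.92). Summed fibroblast markers were 18.0 to 20.02 CPM in ALDH_High and 19.8 to 24.7 in ALDH_Low.

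Of the 29 adhesion receptor genes, 20 had enough counts to be tested and 10 passed an adjusted p below 0.05, the threshold used throughout. Higher in ALDH_High were ADGRL1 and ADGRA2. Lower were ADGRB2, ADGRF1, ADGRF4, ADGRF5, ADGRG1, ADGRG3, ADGRG5 and ADGRL2. Over all 17047 genes tested 20.6% passed, 10.8% higher and 9.83% lower, a balance that turned to 1644 higher and 1931 lower with upper-quartile scaling. A filter on low counts lets a gene in when only 1 group reaches the level of 0.316 CPM, and ADGRF4, ADGRF5, ADGRG3 and ADGRG5 entered through ALDH_Low in this way, so their counts carry less weight. Among the 14 members that reached this level in every library, 2 were higher and 4 (ADGRB2, ADGRF1, ADGRG1 and ADGRL2) lower. Among all genes of that kind 19.4% passed, 10.4% higher and 8.92% lower. The median log2 fold change was -0.26 over the 20 members tested and -0.22 over the 14 that reached the level in every library. It was -0.01 over all genes tested. The 2 groups of 3 libraries did not overlap in CPM for 11 of the 20 members, with ALDH_High above in 3 and ALDH_Low above in 8, against 37.8% of all genes tested (18.6% and 19.1%). The eleventh is ADGRD1, which did not pass and entered through ALDH_High only. The members that entered through ALDH_Low alone are among the 11 as well. An exact permutation test of 3 against 3 libraries cannot go below 0.1 (two-sided), the value each of these 11 genes gave. Without ALDH_High replicate 1, the library that stood apart, 11 members passed, 2 higher and 9 lower: the same 10 and ADGRE1.

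**Figure D1:**
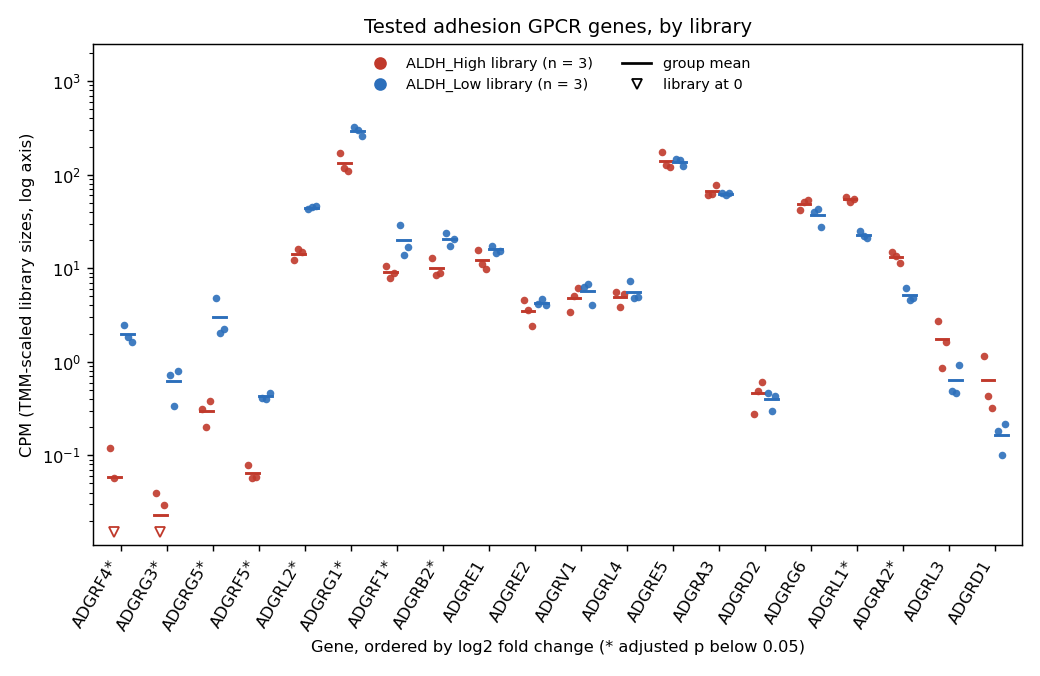
CPM of the 20 tested adhesion receptor genes in each library on a log axis, with 3 ALDH_High and 3 ALDH_Low points and the group mean per gene, ordered by log2 fold change (asterisks: adjusted p below 0.05; triangles: libraries at 0). The groups separate for the 10 genes with an asterisk and for ADGRD1, and the most abundant gene that passed is ADGRG1, at 108.8 to 169.8 CPM in ALDH_High and 259.9 to 322 in ALDH_Low.

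Levels of different genes were set beside each other in transcripts per 1000000 (TPM), a unit that is per length. In ALDH_High, ADGRE5 (64.2 TPM) and ADGRG1 (56.9) led and their ranges overlapped, followed by ADGRA3 (24.1), ADGRL1 (15.4) and ADGRG6 (12.5), each without overlap with the next. In ALDH_Low the order was ADGRG1 (124), ADGRE5 (60.8), ADGRA3 (21.8) and ADGRL2 (16.7), again without overlap, and ADGRF1, ADGRG6, ADGRE1, ADGRB2 and ADGRL1 followed with overlapping neighbours. The ADGRG1 to ADGRE5 ratio of TPM was 0.918, 0.870 and 0.864 in ALDH_High and 2.09, 2.01 and 2.00 in ALDH_Low, so ADGRE5 stood above ADGRG1 in every ALDH_High library and below it in every ALDH_Low library. Summed over the 29 genes, the level was 222, 195.7 and 200.4 TPM in ALDH_High and 309, 283 and 242 in ALDH_Low. ADGRG1 made up 27.5% ± 3.04 of that sum in ALDH_High and 44.5% ± 1.11 in ALDH_Low (SD, n = 3 each). ADGRE5 made up 31.0% ± 2.41 and 21.9% ± 0.695. ADGRL1 went from 7.5% ± 0.657 in ALDH_High to 2.21% ± 0.058 in ALDH_Low, and ADGRL2 from 2.75% ± 0.696 to 6.07% ± 0.800.

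**Figure D2:**
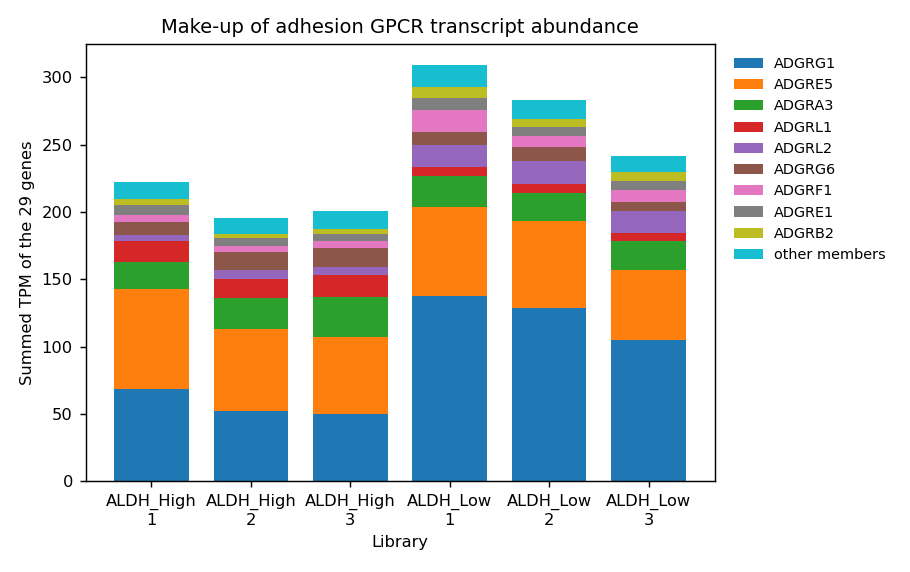
Summed TPM of the 29 adhesion receptor genes in each of the 6 libraries, as bars divided by gene. The bars reach 195.7 to 222 TPM in ALDH_High and 242 to 309 in ALDH_Low, and ADGRG1 is the segment that differs most in height.

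Promoter sequence of 19 of the 29 members was found by symbol in RefSeq (GRCh38.p14), 6 of them genes that passed. The 250 bases before the MANE Select start were searched on both strands for letters bound by factors of this lineage, an E-box of MITF type (CACGTG or CATGTG), a SOX type (ACAAAG or ACAATG), a TFAP2 type (GCCNNNGGC), an AP-1 type (TGANTCA) and a CRE type (TGACGTCA). Shown are 3 genes lower in ALDH_High from different branches, with the matched letters in capitals, since their windows hold 3 different motifs: the AP-1 type in ADGRF4 (chr6:47698330-47698579, plus strand), the E-box in ADGRL2 (chr1:81800684-81800933, plus strand) and the TFAP2 type in ADGRB2 (chr1:31764341-31764590, minus strand).
ADGRF4: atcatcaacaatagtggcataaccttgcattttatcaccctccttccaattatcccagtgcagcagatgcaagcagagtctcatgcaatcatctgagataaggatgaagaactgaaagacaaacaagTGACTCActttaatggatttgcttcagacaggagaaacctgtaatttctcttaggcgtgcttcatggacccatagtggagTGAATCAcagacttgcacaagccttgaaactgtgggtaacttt
ADGRL2: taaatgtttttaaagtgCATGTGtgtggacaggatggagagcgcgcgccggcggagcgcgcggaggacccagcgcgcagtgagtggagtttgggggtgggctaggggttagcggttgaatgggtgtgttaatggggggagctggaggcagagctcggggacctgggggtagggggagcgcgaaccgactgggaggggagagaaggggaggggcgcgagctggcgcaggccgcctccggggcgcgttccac
ADGRB2: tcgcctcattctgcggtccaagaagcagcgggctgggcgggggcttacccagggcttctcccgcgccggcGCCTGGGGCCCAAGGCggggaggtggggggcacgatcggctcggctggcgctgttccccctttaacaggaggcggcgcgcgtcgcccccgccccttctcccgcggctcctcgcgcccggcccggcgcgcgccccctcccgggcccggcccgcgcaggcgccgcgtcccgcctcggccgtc
The ADGRF4 window has 42% G and C and the ADGRB2 window 79.6%, against a median of 58.0% over 34796 windows. Those windows come from all distinct promoter sequences in RefSeq, not only from MANE Select starts, so they are not a like set to the members. An AP-1 type was found in 4 of the 19 members and in 6.59% of all windows, a TFAP2 type in 8 and 19.8%, a SOX type in 3 and 21.3%, an E-box in 1 and 15.2%, and a CRE type in 0 and 1.64%. The 2 TFAP2 matches of ADGRB2 overlap, and 27 bases of the ADGRF4 window lie in exons of other transcripts. The other windows with an AP-1 type hold exonic bases too: all 250 in ADGRG1, 154 in ADGRE3 and 90 in ADGRL4. A match is a description of letters and no binding was measured.

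The latrophilins ADGRL1, ADGRL2 and ADGRL3 take their name from a spider toxin, and they bind teneurins and FLRT proteins across cell contacts. ADGRL1 (ENSG00000072071, chr19:14147743-14206187, minus strand, GRCh38) stood at 58.4, 51.5 and 55.4 CPM in ALDH_High and at 25.1, 21.9 and 20.9 in ALDH_Low. ADGRL2 (ENSG00000117114, chr1:81306147-81993932, plus strand) ran the other way, with 12.1, 16.0 and 14.9 CPM in ALDH_High and 42.5, 45.0 and 45.9 in ALDH_Low. Both genes separated the groups without overlap, in opposite directions. The log2 fold change was 1.28 (SE 0.12, adjusted p = 7.72e-05 by edgeR) for ADGRL1 and -1.63 (SE 0.14, adjusted p = 3.53e-05) for ADGRL2. The TPM ratio of ADGRL1 to ADGRL2 was 3.47, 2.32 and 2.67 in ALDH_High and 0.425, 0.351 and 0.327 in ALDH_Low (exact permutation p = 0.1, the smallest possible), so the more abundant latrophilin was ADGRL1 in every ALDH_High library and ADGRL2 in every ALDH_Low library. A long non-coding RNA on the opposite strand, ADGRL1-AS1, overlaps ADGRL1 with 64 to 105 counts per library. The library kit keeps the strand, but the strand setting of the counting is not given in the sources used here.

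ADGRL3 had 2.72, 0.868 and 1.61 CPM in ALDH_High and 0.493, 0.468 and 0.935 in ALDH_Low. The groups overlapped through ALDH_High replicate 2, and the difference did not pass (log2 fold change 1.45, SE 0.47, adjusted p = 0.0545 by edgeR). It passed without that library (log2 fold change 1.79, adjusted p = 0.025) and with replicate number as a block (adjusted p = 0.0421), and not without ALDH_High replicate 1 (log2 fold change 1.0, adjusted p = 0.137). ADGRL4 (also named ELTD1), known from blood vessel endothelium, had 5.52, 3.88 and 5.34 CPM against 7.26, 4.75 and 4.89. Its groups overlapped and it did not pass (log2 fold change -0.20, SE 0.24, adjusted p = 0.622).

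ADGRG1 (ENSG00000205336, chr16:57610652-57665580, plus strand), a receptor for collagen III and transglutaminase 2 that is needed for the folding of the cerebral cortex, had 169.8, 117.7 and 108.8 CPM in ALDH_High and 322, 301 and 259.9 in ALDH_Low. The highest ALDH_High library stayed below the lowest ALDH_Low library. The log2 fold change was -1.16 (SE 0.17, adjusted p = 0.00101 by edgeR). In bulk libraries, fewer cells that express a gene and less RNA per cell cannot be told apart.

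ADGRG5 (ENSG00000159618, chr16:57542643-57591681, plus strand) and ADGRG3 (ENSG00000182885, chr16:57668277-57689378, plus strand), both better known from white blood cells, flank ADGRG1 on chromosome 16. ADGRG5 had 0.316, 0.203 and 0.381 CPM in ALDH_High and 4.80, 2.04 and 2.27 in ALDH_Low, a log2 fold change of -3.34 (SE 0.45, adjusted p = 0.000592 by edgeR). ADGRG3 had 1, 0 and 1 counts in ALDH_High and 28, 10 and 22 in ALDH_Low. Both genes were scarce in ALDH_High and low in ALDH_Low. For ADGRG3 the ratio of summed counts over scaled library size was 29.3 (exact 95% interval 7.77 to 247, counting error only) in favour of ALDH_Low, with an adjusted p of 0.00168 by edgeR. Summed white blood cell markers ran from 14.4 to 29.7 CPM in ALDH_High and from 59.0 to 69.9 in ALDH_Low, and 3 of 9 could be tested. CD68 (log2 fold change -1.86) and CD14 (-1.96) were lower in ALDH_High and LYZ (1.65) was higher. The defining marker PTPRC had 1 to 4 counts per library, CD3E at most 2, and NKG7 had 0 in every library. The part of these markers in the differences of ADGRG3 and ADGRG5 was not tested beyond these values.

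ADGRG6 (also named GPR126), which Schwann cells need to form myelin, had 41.5, 50.8 and 53.9 CPM in ALDH_High and 40.1, 42.6 and 27.6 in ALDH_Low. The groups overlapped and the gene did not pass (log2 fold change 0.41, SE 0.17, adjusted p = 0.135 by edgeR).

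Of the ADGRF genes on chromosome 6, ADGRF1 (also named GPR110; ENSG00000153292, chr6:46997708-47042350, minus strand), the receptor for the fatty acid amide synaptamide, had 10.5, 7.79 and 8.91 CPM in ALDH_High and 29, 13.8 and 16.9 in ALDH_Low. ALDH_Low replicate 1 was the high library, and all 3 ALDH_Low libraries lay above ALDH_High. The log2 fold change was -1.14 (SE 0.26, adjusted p = 0.0117 by edgeR), it was -0.75 without ALDH_Low replicate 1 (adjusted p = 0.0353), and the call was lost without ALDH_High replicate 2 (-1.02, adjusted p = 0.0535). ADGRF4 (also named GPR115; ENSG00000153294, chr6:47685864-47722021, plus strand), known from epithelia, had 3, 2 and 0 counts in ALDH_High and 96, 55 and 45 in ALDH_Low. Its ratio of ALDH_Low to ALDH_High was 38.3 (exact 95% interval 16.1 to 119, counting error only; adjusted p = 0.000277 by edgeR). ADGRF5 (also named GPR116; ENSG00000069122, chr6:46852522-46954943, minus strand), a regulator of lung surfactant, had 2 counts in each ALDH_High library and 16, 12 and 13 in ALDH_Low, a ratio of 6.67 (exact 95% interval 2.82 to 19.2; adjusted p = 0.00412 by edgeR). Of the 5 ADGRF genes 3 were tested, and all 3 were lower in ALDH_High, where 9.83% of all genes tested were lower. ADGRF1 had at least 267 counts in every library, while ADGRF4 and ADGRF5 had at most 3 in every ALDH_High library. ADGRF4 and ADGRF5 passed the filter on low counts only through ALDH_Low, so their direction carries less weight. Summed keratinocyte and epithelial markers were 43.8 to 64.4 CPM in ALDH_High and 44.9 to 60.4 in ALDH_Low, and of 3 tested KRT5 was lower (log2 fold change -3.63). EPCAM had 3 to 9 counts and CDH1 2 to 38, and the part of these markers in the ADGRF4 difference was not tested.

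ADGRB2 (also named BAI2; ENSG00000121753, chr1:31727117-31764893, minus strand), of the brain-specific angiogenesis inhibitor branch, had 12.8, 8.51 and 8.85 CPM in ALDH_High and 23.8, 17.3 and 20.3 in ALDH_Low. The groups did not overlap, with a log2 fold change of -1.03 (SE 0.20, adjusted p = 0.00446 by edgeR). ADGRA2 (also named GPR124; ENSG00000020181), which with the membrane protein RECK passes on WNT7 signals in brain vessels, had 14.8, 13.7 and 11.3 CPM in ALDH_High and 6.17, 4.62 and 4.85 in ALDH_Low. It was the other member that rose, with a log2 fold change of 1.34 (SE 0.19, adjusted p = 0.000811 by edgeR). BRF2 overlaps the gene on the opposite strand with 397 to 610 counts per library. Summed endothelial markers were 11.9 to 14.2 CPM in ALDH_High and 2.83 to 3.78 in ALDH_Low, which rests on KDR (log2 fold change 3.61, the 1 of 4 tested that passed). The other 3 tested had negative log2 fold changes and did not pass, and the median of the 4 was -0.38. CDH5 had 1 to 17 counts and PECAM1 3 to 35, and the part of these markers in the ADGRA2 difference was not tested. ADGRA3, the close relative of ADGRA2, had 60.6, 62.4 and 77.8 CPM in ALDH_High and 63.8, 60.2 and 64.5 in ALDH_Low, overlapping groups that did not pass (log2 fold change 0.09, SE 0.12, adjusted p = 0.670).

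ADGRE5 (CD97), which binds CD55 on neighbouring cells, had 175.8, 128.6 and 119.8 CPM in ALDH_High and 146, 142 and 123 in ALDH_Low. The groups overlapped and the log2 fold change was 0.04 (SE 0.15, adjusted p = 0.888 by edgeR), with a sign that turned under upper-quartile scaling. ADGRE1, the human counterpart of the mouse macrophage marker F4/80, had 15.6, 11.1 and 9.94 CPM in ALDH_High and 17.5, 14.7 and 15.5 in ALDH_Low. It did not pass (log2 fold change -0.38, SE 0.19, adjusted p = 0.194), and passed without ALDH_High replicate 1 (-0.58, adjusted p = 0.0220). ADGRE2, a myeloid receptor that shares nearly identical modules with ADGRE5, did not pass either (-0.29, adjusted p = 0.499), and reads could be split between the pair. ADGRD1 (also named GPR133), which couples to Gαs, had 1.14, 0.434 and 0.322 CPM in ALDH_High and 0.182, 0.10 and 0.216 in ALDH_Low. The groups did not overlap, but the gene missed the threshold (log2 fold change 1.87, SE 0.60, adjusted p = 0.0504 by edgeR). It passed with DESeq2's size factors (adjusted p = 0.0497) and with replicate number as a block (0.0470), and not without ALDH_High replicate 1 (log2 fold change 1.19, adjusted p = 0.149). ADGRD2 and ADGRV1, the very large receptor mutated in Usher syndrome, lay at 0.276 to 0.616 and 3.43 to 6.76 CPM over the 6 libraries and did not pass (log2 fold changes 0.22 and -0.23).

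The 9 members not tested were ADGRA1, ADGRB1, ADGRB3, ADGRE3, ADGRF2, ADGRF3, ADGRG2, ADGRG4 and ADGRG7. None had more than 22 counts in any library, and ADGRE3 and ADGRG7 had 0 in all 6. ADGRF2, listed as protein_coding in the deposited tables, is a transcribed unitary pseudogene in GENCODE 44 and shares 9.329 kb of strand with ADGRF4. Its counts were 0, 1 and 2 in ALDH_High and 0, 1 and 21 in ALDH_Low.

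**Figure D3:**
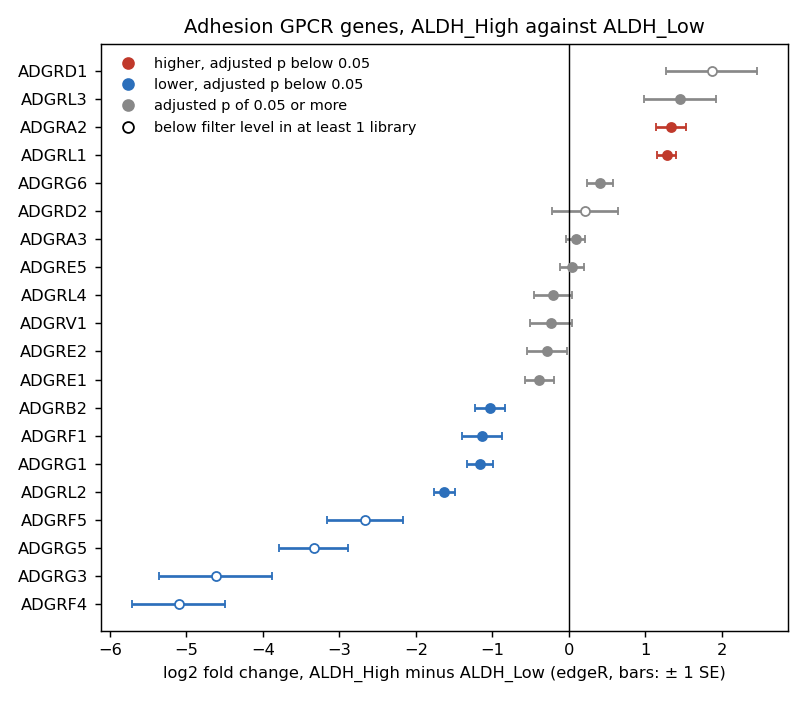
log2 fold change (ALDH_High minus ALDH_Low, edgeR, bars ± 1 SE) of the 20 tested adhesion receptor genes, with open points for genes below the filter level in at least 1 library. ADGRA2 and ADGRL1 lie right of 0 among the genes that passed, and 8 genes lie left of it, down to ADGRF4 and ADGRG3, whose fitted values depend on the prior count.

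Some members lie close together, ADGRG5, ADGRG1 and ADGRG3 on chromosome 16, ADGRF1, ADGRF2, ADGRF4 and ADGRF5 on chromosome 6, and ADGRL1, ADGRE5, ADGRE3 and ADGRE2 on chromosome 19, while the others are scattered. The neighbours of these 3 clusters were examined within 500 kb. Over all tested protein-coding genes 22.2% passed, the share to set beside the counts of neighbours. Of the members there, ADGRG3, ADGRG5, ADGRF4 and ADGRF5 passed the filter on low counts only through ALDH_Low, which favours a lower call. At the chromosome 16 cluster of ADGRG5, ADGRG1 and ADGRG3 (chr16:57542643-57689378, 146.7 kb) all 3 members were lower in ALDH_High. Of 19 other tested protein-coding genes there, NLRC5 (log2 fold change -0.86), CPNE2 (-0.56) and DOK4 (-0.53) were lower and MMP15 (2.97) higher, with a median of -0.05. CCDC102A (0.07), next to ADGRG5, did not pass. At the chromosome 6 cluster (chr6:46852522-47722021, 869.5 kb), of 5 other tested genes PLA2G7 (-1.31) was lower and PTCHD4 (1.61) higher. TNFRSF21 (-0.44) and CD2AP (-0.10), which lie between the members, did not pass. Around ADGRL1, ADGRE5 and ADGRE2 on chromosome 19, 2 of 27 other tested genes were higher and 1 lower.

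**Figure D4:**
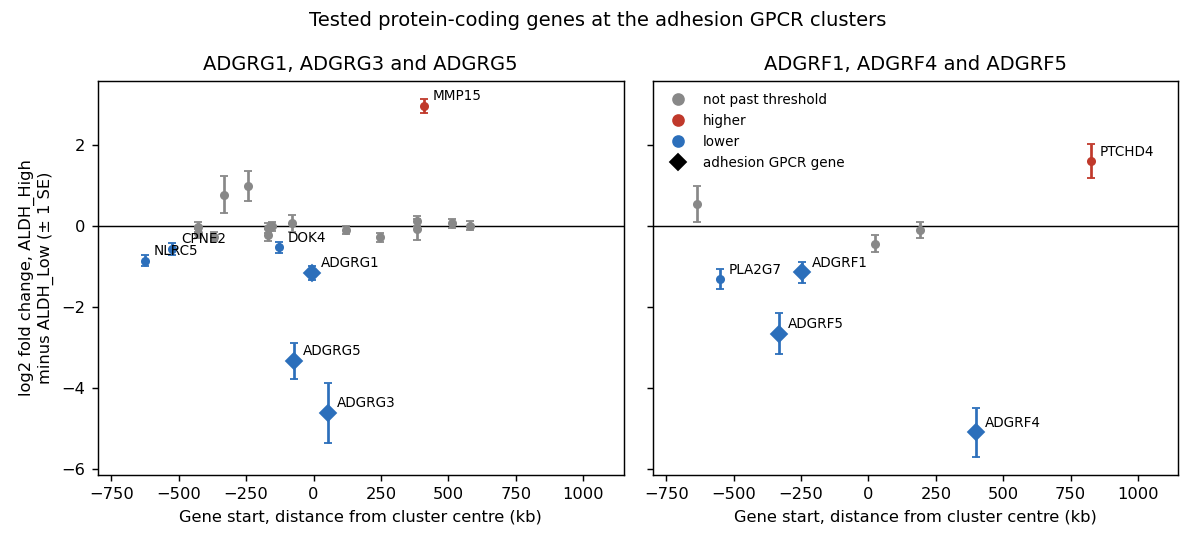
log2 fold change (± 1 SE) of the tested protein-coding genes at the chromosome 16 and chromosome 6 clusters against the distance of the gene start from the cluster centre in kb, adhesion receptors as diamonds and other genes as circles. The tested adhesion receptors lie below 0 at both clusters, and the other genes have medians of -0.05 and -0.10. ADGRG3, ADGRG5, ADGRF4 and ADGRF5 passed the filter on low counts only through ALDH_Low, which favours a place below 0.

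The partners of these receptors were counted by role. Of 40 described ligands, 33 were tested, 10 higher and 9 lower in ALDH_High, beside 20.6% of all genes tested that passed. For the latrophilins, FLRT3 went from 11.4 CPM ± 2.51 in ALDH_Low to 52.2 ± 7.77 in ALDH_High (SD, n = 3 each; log2 fold change 2.20, SE 0.18, adjusted p = 3.18e-05 by edgeR) and FLRT1 also rose (4.08, adjusted p = 0.00212), from 0, 2 and 6 counts in ALDH_Low. FLRT2 fell (log2 fold change -0.88, adjusted p = 0.0358 by edgeR), a call lost without ALDH_High replicate 2 or 3 or ALDH_Low replicate 1 or 2 (adjusted p 0.0958 to 0.131) and in 3 of the other alternative analyses. Of the teneurins, TENM4 fell (-2.91, adjusted p = 0.00498), while TENM1 (0.10), TENM2 (-1.03, adjusted p = 0.0830) and TENM3 (0.19) did not pass. TENM2 passed without ALDH_High replicate 1 (adjusted p = 0.0229 by edgeR) and with replicate number as a block (0.00838). Of the neurexins, NRXN2 fell (log2 fold change -2.36, adjusted p = 0.00442) and NRXN3 rose (1.75, adjusted p = 0.00111). Among the FLRT and neurexin genes that passed, some rose and some fell.

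For ADGRG1, transglutaminase 2 (TGM2) had 355 CPM ± 80.6 in ALDH_High and 576 ± 106 in ALDH_Low (SD, n = 3 each; log2 fold change -0.70, SE 0.18, adjusted p = 0.0216 by edgeR), and the call was lost without ALDH_High replicate 2 or 3 or ALDH_Low replicate 1 or 2 (adjusted p 0.0746 to 0.0882). COL3A1 was not tested, with 0, 2 and 2 counts in ALDH_High and 6, 2 and 11 in ALDH_Low. For ADGRA2, WNT7B fell (log2 fold change -2.56, adjusted p = 0.0112 by edgeR; 0.0506 without ALDH_High replicate 2), WNT7A was not tested at 3, 2 and 0 against 22, 9 and 12 counts, and RECK did not pass (0.41, adjusted p = 0.246). For ADGRF5, surfactant protein D (SFTPD) had 0 counts in every library and FNDC4 did not pass (0.37, adjusted p = 0.434). CD55, the ligand of ADGRE5, fell (-0.73, adjusted p = 0.00244) while its receptor did not pass. PLXDC2, described as a partner of ADGRD1, had 1.33 CPM ± 0.424 in ALDH_High and 26.3 ± 3.63 in ALDH_Low (SD, n = 3 each; log2 fold change -4.28, SE 0.24, adjusted p = 4.4e-06). Of matrix genes in the ligand list, COL4A1 (1.11) and COL4A2 (1.03) rose and LAMA1 (-2.18) fell, while LAMA2 did not pass (0.45, adjusted p = 0.310 by edgeR). The integrin subunit ITGB3 rose (3.63), with 204 CPM in ALDH_High replicate 1 and 89.3 and 88.2 in the others, against 15.8, 7.49 and 7.19 in ALDH_Low.

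Inside the cell, 3 Gα genes rose and 1 fell of 11 tested. Over all genes tested 20.6% passed, 10.8% higher and 9.83% lower, the shares to set beside each count by role. GNAS, which encodes Gαs, rose from 909 CPM ± 79.8 in ALDH_Low to 2078 ± 364 in ALDH_High (SD, n = 3 each; log2 fold change 1.19, SE 0.14, adjusted p = 0.000260 by edgeR). GNAZ (1.54) and GNAL (1.14) rose and GNAI1 (-0.63) fell, while GNA12 (0.14, adjusted p = 0.491) and GNA13 (0.51, adjusted p = 0.0557) did not pass. GNAL lost its call without ALDH_High replicate 1 or 2 or ALDH_Low replicate 2 or 3 (adjusted p 0.0673 to 0.143), and GNAI1 without ALDH_High replicate 2 (0.0745) or ALDH_Low replicate 1 (0.0827). Of 13 tested Gβ and Gγ genes GNG7 (4.07), GNG2 (2.21) and GNG4 (0.76) rose, and GNGT2 (-1.28) and GNG11 (-0.39) fell. GNGT2 lost its call without ALDH_High replicate 2 or 3 or ALDH_Low replicate 2 or 3 (adjusted p 0.0555 to 0.0810). GNG11 lost it without any single library other than ALDH_High replicate 1 (0.0845 to 0.206) and with replicate number as a block (0.0501). On the cAMP route 6 of 19 rose and 0 fell, among them the adenylyl cyclase ADCY1 (2.93, adjusted p = 0.000109), the phosphodiesterases PDE3B (2.31) and PDE4B (1.06), and the regulatory subunit PRKAR1A (0.52), whose call was lost without ALDH_High replicate 2 (adjusted p = 0.0561). Receptor kinases GRK3 (1.86) and GRK5 (1.46) rose and the arrestin ARRB1 (-0.77) fell, of 7 tested. Over all partner lists together 40 of 98 tested passed, 27 higher and 13 lower. They include 1 list whose genes are not reported here, in which 3 of 15 tested passed (20%), near the share over all genes. FLRT1, GNG7 and PDE3B passed the filter on low counts only through ALDH_High, and NRXN2, TENM4 and WNT7B only through ALDH_Low. Among the 90 partner genes that reached the filter level in every library 34 passed (37.8%), 24 higher and 10 lower, where 19.4% of all such genes passed.

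**Figure D5:**
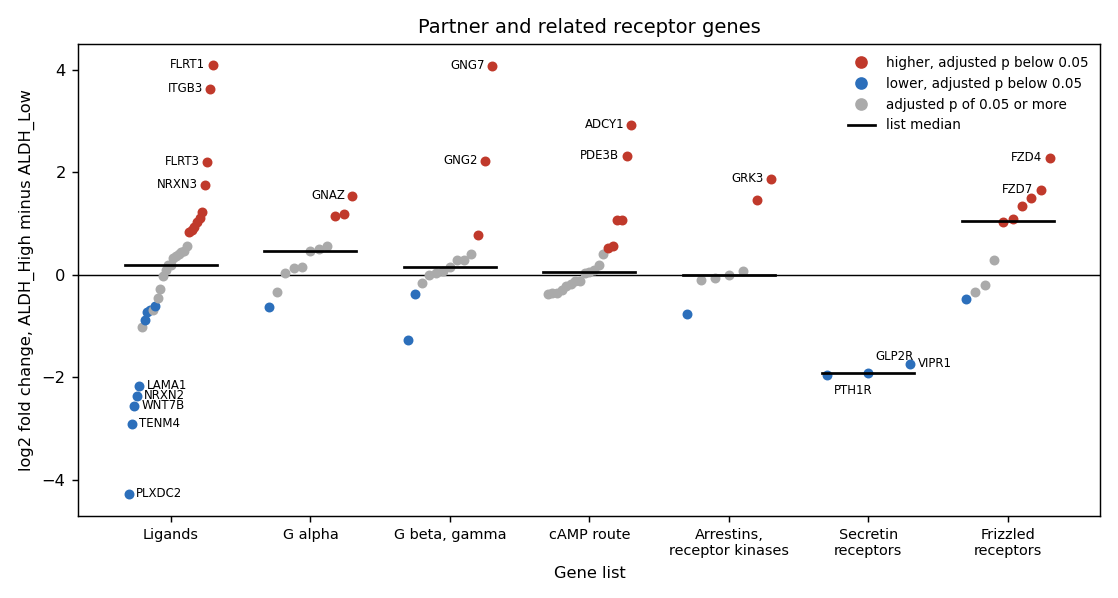
log2 fold change (ALDH_High minus ALDH_Low, edgeR) of each tested gene of the ligand, G protein, cAMP, arrestin and receptor kinase, secretin and Frizzled lists, with a line at each list's median. In the cAMP list all genes that passed (6 of 19 tested) lie above 0, and the 3 secretin receptors tested lie below 0. Over all genes tested 20.6% passed, 10.8% higher and 9.83% lower.

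Related receptors were counted in the same fit, in which 20.6% of all genes tested passed, 10.8% higher and 9.83% lower. CELSR1, CELSR2 and CELSR3 are adhesion receptors of planar cell polarity whose symbols do not begin with ADGR. CELSR3 had 24.9 CPM ± 3.23 in ALDH_High and 45.7 ± 4.80 in ALDH_Low (SD, n = 3 each; log2 fold change -0.88, SE 0.14, adjusted p = 0.00158 by edgeR). CELSR1 (0.67, adjusted p = 0.0550) and CELSR2 (-0.39, adjusted p = 0.162) did not pass. CELSR1 passed without ALDH_Low replicate 1 (adjusted p = 0.0151 by edgeR) and with replicate number as a block (0.00828). Of 15 secretin-family receptors, the closest family, 3 were tested and all 3 were lower: VIPR1 (-1.75), PTH1R (-1.95) and GLP2R (-1.92). GLP2R passed the filter on low counts only through ALDH_Low, and its call was lost without ALDH_High replicate 2 (adjusted p = 0.0642 by edgeR) or ALDH_Low replicate 1 (0.0583) or 2 (0.0655). PTH1R lost its call in 3 of 14 alternatives, all of them limma on TPM. Of 10 tested Frizzled-class receptors 6 were higher, with FZD4 (2.27), FZD7 (1.66), FZD8 (1.5) and SMO (1.34) first by p, and FZD6 (-0.48) was lower, a call lost without any single library other than ALDH_Low replicate 3 (adjusted p 0.0674 to 0.146).

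The authors' deposited table gives a model coefficient of each group against another group that is not among these 6 libraries. The difference between the 2 coefficients had the same sign as the fit here for 20 of the 20 members tested. Both sides draw on the ALDH_High and ALDH_Low samples, so a shared sign is no independent support. The median gap between the authors' deposited table and this fit was 0.02 on the log2 scale and the widest 0.20, for ADGRG3.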

How the data were processed

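RNA of 6 sorted A375 samples was profiled by stranded mRNA libraries, per the labels' protocols. The estimated counts per gene were deposited by the authors as whole numbers, already rounded, as shown by 133 to 177 genes per library with a count of 0 beside a TPM above 0. The TPM values the authors deposited sum to 1000000 in each library, and their coefficients are deposited on a log2 scale. GRCh38, STAR 2.5.1b, HTSeq 0.6.1, FastQC 0.11.3 and DESeq2 are named in the submitters' processing notes; their roles and the strand setting are not given in the sources used here.

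Counts were fitted with edgeR 4.0.16 (R 4.3.3): filterByExpr, TMM scaling, quasi-likelihood F-test on group, Benjamini-Hochberg over all 17047 genes, and SE as the fold change over the square root of F. Rows without a gene name (261, at most 0.0267% of counts) stayed in the fit and belong to no list. The fit was planned for raw counts and was kept for rounded estimates. Code was tested on simulated data first. Alternatives were DESeq2 1.42.0, limma 3.58.1 on log2 TPM, other scalings and filters, a replicate block and leaving out each library. Gene locations are from GENCODE 44.

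The members and lists were chosen with earlier results of these data known. Named genes were every member, ALDH1A3, the CELSR genes, up to 4 genes per direction and list by smallest p, and described ligands of members that passed. GNA12, GNA13, LAMA2, TENM and NRXN members beyond these, and the markers and neighbours, were named for their role or position after values were seen. 1 list of partner genes and some single genes are not reported here.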

Additional observations from a re-analysis of the deposited data

How the results depend on the processing

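Of the 10 members called, ADGRA2, ADGRG1, ADGRL1 and ADGRL2 kept their call and direction in all 15 alternatives. ADGRF4 and ADGRF5 kept theirs in the 12 alternatives that tested them, and ADGRG3 in 11. Filters left these genes untested in the others, so their calls could not be checked there. ADGRG3 was not tested without ALDH_Low replicate 1. ADGRF1 lost its call in 3 alternatives (adjusted p up to 0.130). ADGRB2 (0.0502) and ADGRG5 (0.0564) lost theirs with limma on log2(TPM + 1) when no TPM filter was set. limma on TPM with a filter tested 13 members by construction and called 5 with a pseudocount of 1 and 6 with 0.1. Without a count filter 14 members passed. With DESeq2's size factors 3 of 11 member calls were higher against 2 of 10 here. The added call was ADGRD1 (adjusted p = 0.0497 against 0.0504 by edgeR). Upper-quartile factors left the member split at 2 higher and 8 lower. They turned that of all genes from 1838 higher and 1675 lower to 1644 and 1931. For all genes the count moved to 2006 with limma without a filter, 1930 at adjusted p below 0.01 and 1958 where the log2 change also had to reach 1 in size. Partner genes moved to 24 with either limma pseudocount, 22 with no TPM filter and 24 with that size threshold, and related receptors to 7, 7 and 5 with limma and 7 at adjusted p below 0.01. Leaving out 1 library gave 2488 to 4221 genes, 9 to 11 members, 30 to 50 partners and 7 to 10 related receptors, the 7 without ALDH_Low replicate 2. Signs turned only for genes that did not pass, within the alternatives run: ADGRE5 turned to -0.0082 with upper-quartile factors and ran from -0.13 to 0.16 with 1 library left out (-0.03 without ALDH_Low replicate 3), ADGRA3 from -0.016 to 0.17, ADGRD2 from -0.025 to 0.48, ADGRL4 from -0.31 to 0.039, and TENM1 from -0.095 to 0.29 (-0.047 without ALDH_High replicate 2).

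The replicate numbers were not taken as pairs. Deviations of same-numbered libraries correlated at 0.194, 0.132 and 0.106 on log2(CPM + 0.5), but at 0.150, 0.0760 and 0.108 with a prior count of 2, and every library correlated best with its own number. With replicate number as a block, 3748 genes, 12 members (the 10 and ADGRD1 and ADGRL3), 42 partners and 12 related receptors passed, among them TENM2 and CELSR1, and GNG11 lost its call. Members at a few counts (ADGRF4, ADGRF5, ADGRG3) are limited by depth.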

Other observations

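Rows of the tables named for adhesion receptors but not protein_coding were counted too. The pseudogene ADGRF5P1 had 11, 21 and 24 counts in ALDH_High and 35, 24 and 15 in ALDH_Low, overlapping groups with a log2 fold change of -0.36 (adjusted p = 0.560 by edgeR). ADGRE4P, a pseudogene of the ADGRE branch, had 3, 6 and 4 counts against 4, 2 and 3. ADGRA1-AS1, ADGRD1-AS1, ADGRF5P2 and ADGRL3-AS1 had at most 3 counts in any library and were not tested.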
